A study of Homo sapiens with 12 samples.

Results

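Described here are 9 human genes for acyl-CoA synthetases, the enzymes that join a fatty acid to coenzyme A: ACSL1, ACSL3, ACSL4 and ACSL5 of the long-chain family, ACSM3 of the medium-chain family, and SLC27A1, SLC27A2, SLC27A3 and SLC27A4 of the fatty acid transport proteins. They were taken by gene symbol, and all 9 had a row among the 13091 genes measured. The RNA sequencing covered AGS and MKN74, established human gastric cancer cell lines, each with 1 library of cells overexpressing the transcription factor ONECUT2 and 1 library of control cells. The groups were thus AGS with ONECUT2 overexpression, AGS control, MKN74 with ONECUT2 overexpression and MKN74 control. The labels used here do not say how ONECUT2 was introduced, what the control cells received, or whether each line was a clone or a pool. No treatment or time is given.

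Most metabolic uses of a fatty acid begin when an acyl-CoA synthetase activates it, and the product then enters oxidation, triglyceride or phospholipid synthesis, or protein acylation. The family members differ in the chain lengths they prefer and in the membrane they sit on. ACSL5 is found on mitochondria and the endoplasmic reticulum and is abundant in the absorptive cells of the small intestine. The title of the series names ACSL5 as a gene triggered by ONECUT2, a cut homeobox factor of liver, pancreas and neuronal development. It also names loss of CpG methylation near promoters, which is not taken here as a statement about the promoters of the members.

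The stretch of 250 bases before the gene's start is shown for ACSL5, the gene with the largest change, for SLC27A1, another changed gene, and for ACSL4, whose changes stayed under 2-fold. The sequences are RefSeq's in build GRCh38.p14, 5′ to 3′ on the gene's strand, with each CpG in capitals. ACSL5 is at chr10:112375018-112375267 on the plus strand, SLC27A1 at chr19:17470274-17470523 on the plus strand, and ACSL4 at chrX:109733258-109733507 on the minus strand.
ACSL5: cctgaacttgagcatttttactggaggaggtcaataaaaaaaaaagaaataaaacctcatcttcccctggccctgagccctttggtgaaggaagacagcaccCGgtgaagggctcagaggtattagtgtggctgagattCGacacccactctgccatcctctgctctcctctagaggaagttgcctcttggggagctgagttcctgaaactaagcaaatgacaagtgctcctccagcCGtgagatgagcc
SLC27A1: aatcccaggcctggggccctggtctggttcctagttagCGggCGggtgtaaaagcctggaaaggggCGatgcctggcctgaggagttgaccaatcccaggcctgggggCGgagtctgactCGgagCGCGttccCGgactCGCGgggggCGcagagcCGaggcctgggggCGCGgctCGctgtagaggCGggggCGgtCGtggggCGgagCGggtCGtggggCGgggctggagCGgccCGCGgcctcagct
ACSL4: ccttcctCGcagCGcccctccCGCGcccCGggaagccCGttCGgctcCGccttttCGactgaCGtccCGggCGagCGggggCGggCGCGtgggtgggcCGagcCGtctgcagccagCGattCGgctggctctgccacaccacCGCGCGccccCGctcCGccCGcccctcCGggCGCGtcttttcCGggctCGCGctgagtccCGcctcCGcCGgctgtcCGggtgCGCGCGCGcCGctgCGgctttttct

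The ACSL5 stretch is poor in CpG. It holds 3, where the median over 35116 promoters of the RefSeq table is 11 and 22.9% hold fewer. SLC27A1 has 25 and ACSL4 has 42. Over the 8 members in that table the other counts were 41 for ACSL1, 35 for ACSL3, 31 for SLC27A4, 22 for SLC27A3 and 17 for SLC27A2. The GC content of the ACSL5 stretch was 50.0%, against 64.4% to 83.6% in the other members, and the median promoter had 58.0%. These are the first starts listed for each gene. The table has 1 further start for ACSL5, with 2 CpG and a GC content of 48.8%, and 4 for ACSL1, with 4 to 6 CpG, so the gap between ACSL1 and ACSL5 depends on the start taken. Methylation was not measured in these RNA libraries, and the start used by these cells was not measured either.

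The same stretches were searched on both strands for 4 motifs. The ONECUT core ATTGAT, present in 5.58% of all promoters, was in 0 of the 8, and the palindromic form ATCGAT, present in 0.655%, was in 0 of the 8. The TATA box TATAAA, present in 10.7%, was also in 0. The GC box GGGCGG, present in 42.6% of promoters, was in 7 of the 8, all except ACSL5, with 6 matches for ACSL1, 5 for SLC27A1, 4 for SLC27A3, 3 each for ACSL3 and ACSL4, 2 for SLC27A4 and 1 for SLC27A2. The further start of ACSL5 held 0 of the 4 motifs, and of the 4 further starts of ACSL1 only 1 held a GC box. These motifs can share bases where they overlap, and a missing match says only that these letters are not in the window. Of the ONECUT core only ATTGAT and ATCGAT were searched, so a variant such as ATTGAC is not in these counts. The ACSL5 stretch printed above holds gtcaat, which reads ATTGAC on the opposite strand. The share of promoters with this variant was not computed, and binding of ONECUT2 there was not tested.

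Levels are in CPM, which adjusts a gene's reads for library size and not for transcript length, so no level is compared between genes. A change is log2(CPM + 1) in overexpression minus that in control. It was counted at 2-fold of CPM + 1, and only where the 2 libraries of the line averaged 1 CPM or more. At low levels this mark asks for a larger ratio of CPM. With 1 library per group, no change within a line has a replicate check. Intervals are at 95% and cover counting error only. The CPM steps imply 41014432 to 45849254 reads per library, of which 36097456 to 38110453 lie in the listed genes. ONECUT2 checked the labels: it had 18.3 CPM in AGS overexpression against 4.39 CPM in AGS control, and 57.6 CPM in MKN74 overexpression against 5.14 CPM in MKN74 control. Of 5 epithelial markers all 5 were measured, with summed levels of 4729 and 8437 CPM in the AGS and MKN74 overexpression libraries and 5420 and 13673 CPM in the AGS and MKN74 control libraries. CDH1, the epithelial cadherin, was low in AGS at 8.74 CPM in overexpression and 7.63 CPM in control. Of 7 markers of immune, fibroblast and endothelial cells, CD68 and COL1A1 had rows, and together they came to 29.6 and 19.4 CPM in AGS and MKN74 overexpression against 22.9 and 15.2 CPM in AGS and MKN74 control.

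ACSL5 was far higher with ONECUT2 overexpression in both lines, and it was the only member to pass 2-fold in both. ACSM3 passed it in MKN74 and SLC27A1 in AGS, and 0 of the 9 were 2-fold lower in either line. In AGS 2 of 9 members were at least 2-fold higher, where 4.19% of 11675 genes were, and 0.728% were at least 2-fold lower. In MKN74 2 of 9 were at least 2-fold higher, where 3.26% of 11914 genes were, and 1.35% were at least 2-fold lower. All 9 passed the filter of 1 CPM in each line, but ACSL5 and ACSM3 passed it in MKN74 only through the overexpression library, since both were under 1 CPM in MKN74 control. The count in MKN74 consists of these 2 and is a description. The median change of the members was 0.27 in AGS and 0.34 in MKN74, beside -0.0034 and -0.020 over all genes.

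**Figure D1:**
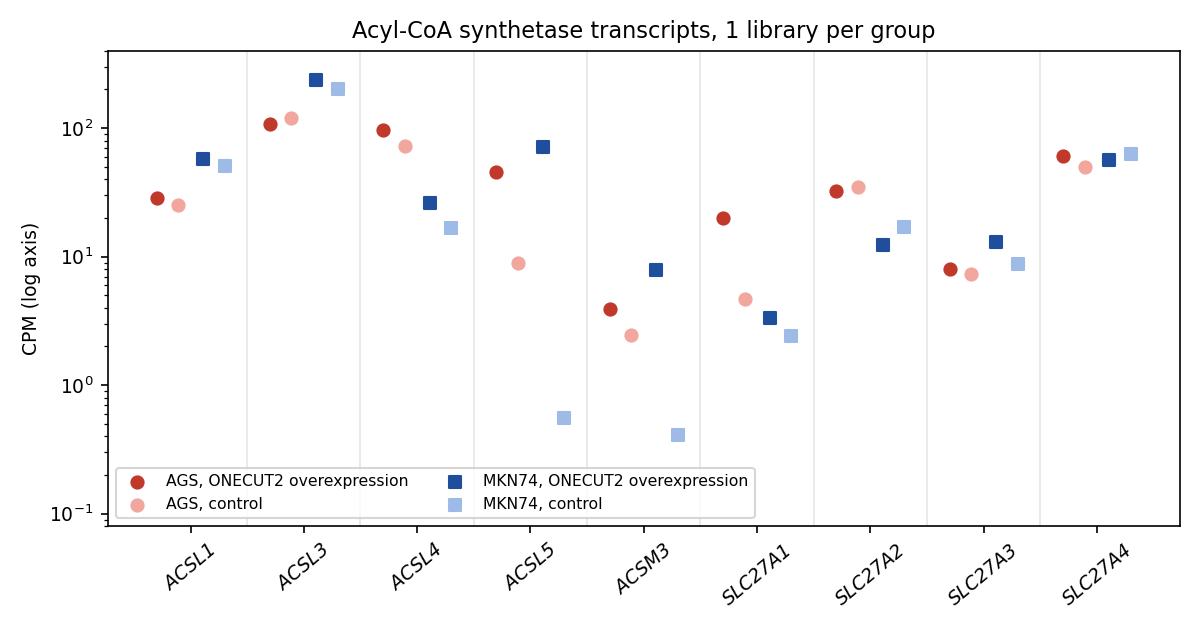
Level of each member in CPM (log axis) in the 4 libraries, 1 point per library: circles are AGS, squares are MKN74, dark points are ONECUT2 overexpression and pale points are control. ACSL5 stands at 45.9 and 71.9 CPM in the overexpression libraries, above 8.92 and 0.550 CPM in the controls.

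ACSL5 had 45.9 CPM in AGS overexpression (1984 reads) against 8.92 CPM in AGS control (366 reads). It had 71.9 CPM in MKN74 overexpression (3295 reads) against 0.550 CPM in MKN74 control (23 reads). Both overexpression libraries thus lay above both controls. The ratio of MKN74 to AGS was 1.57 in the overexpression libraries and 0.0617 in the controls, so on a ratio scale the controls lay farther apart. The change was 2.24 in AGS (counting interval 2.09 to 2.39) and 5.55 in MKN74 (5.31 to 5.76). As ratios of CPM these were 5.14 (4.60 to 5.76) in AGS and 131 (86.9 to 206) in MKN74. The ratio in MKN74 was 25.4 times that in AGS (counting interval 16.6 to 38.9), and with no residual degree of freedom this difference between the lines was not tested. A larger change was seen for 44 of 11675 genes in AGS and 4 of 11914 in MKN74. ACSL5 entered the MKN74 ranking only through its overexpression library, so its place there is a description. At least 2-fold higher in both lines were 0.344% of 10766 genes. In bulk RNA a change in the share of cells that express a gene and a change in its level per cell cannot be told apart.

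ACSL5 shares its place with other genes, since ZDHHC6, a palmitoyltransferase gene, overlaps it on the opposite strand in the RefSeq annotation. Whether the counting used strand is not stated, so reads from the overlap cannot be told apart. ZDHHC6 itself had 84.9 CPM in AGS overexpression against 71.9 CPM in AGS control, and 72.1 CPM in MKN74 overexpression against 63.4 CPM in MKN74 control, changes of 0.24 and 0.18. The nearest measured genes on either side were GPAM, the mitochondrial acyltransferase that starts glycerolipid synthesis, and VTI1A, a vesicle fusion gene. GPAM changed by -0.17 in AGS and -0.037 in MKN74, and VTI1A by 0.21 in AGS and -0.12 in MKN74. The changes of these 3 genes thus stayed under 2-fold in both lines. Whether reads from the overlap entered the ACSL5 count was not tested.

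ACSM3, a mitochondrial enzyme for medium-chain fatty acids, followed the order of ACSL5 over the 4 libraries at lower counts. It had 3.91 CPM in AGS overexpression (169 reads) against 2.46 CPM in AGS control (101 reads). It had 7.85 CPM in MKN74 overexpression (360 reads) against 0.407 CPM in MKN74 control (17 reads). As with ACSL5, MKN74 overexpression was highest and MKN74 control lowest. The change was 0.50 in AGS (0.23 to 0.77), and 0.20 after quantile normalization. The change in MKN74 was 2.65 (2.39 to 2.86), with a ratio of 19.3 (11.9 to 33.5), and 86 genes had a larger one there. ACSM3 too entered that ranking only through the overexpression library, so this place is a description. In the RefSeq annotation ACSM3 overlaps THUMPD1 and ERI2, which may share reads with it, and ACSM1, which had no row. THUMPD1 changed by -0.22 in AGS and -0.024 in MKN74, and ERI2 by -0.0069 in AGS and -0.58 in MKN74. The nearest measured genes on either side were GPRC5B and DCUN1D3. GPRC5B changed by -1.07 in AGS and 0.034 in MKN74, and DCUN1D3 by 0.34 in AGS and -1.30 in MKN74.

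**Figure D2:**
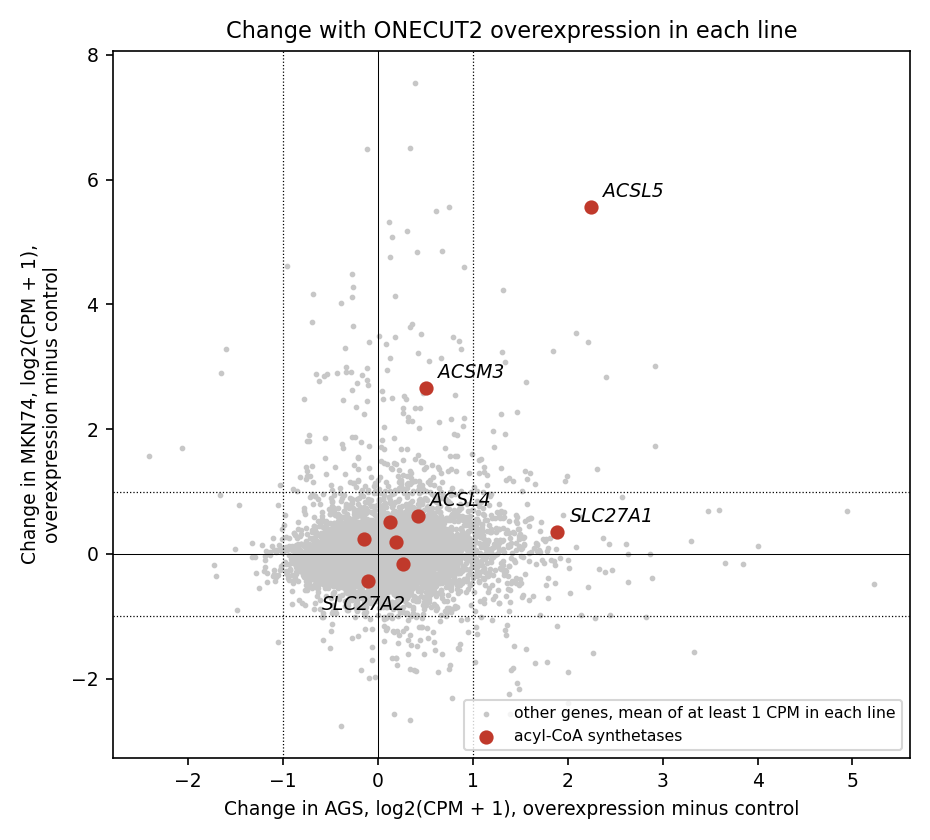
Change of log2(CPM + 1), overexpression minus control, in AGS (x axis) and MKN74 (y axis) for 10766 genes averaging 1 CPM or more within both lines, members in red. Dotted lines mark 2-fold. ACSL5 lies past 2-fold on both axes, at 2.24 and 5.55, ACSM3 past it on the MKN74 axis at 2.65 and SLC27A1 on the AGS axis at 1.89.

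SLC27A1, a fatty acid transport protein known from muscle and fat, was high in AGS overexpression alone. It had 20.1 CPM in AGS overexpression (871 reads) against 4.71 CPM in AGS control (193 reads), and 3.34 CPM in MKN74 overexpression against 2.42 CPM in MKN74 control. The AGS overexpression library therefore stood above the other 3. The change was 1.89 in AGS, with a ratio of 4.28 (3.66 to 5.03), and 0.34 in MKN74 (0.070 to 0.62, and 0.22 after quantile normalization). Its nearest measured neighbours were also higher in AGS overexpression. PGLS, a pentose phosphate pathway enzyme, had 29.6 CPM there against 12.4 CPM in AGS control (change of 1.19), and MVB12A, an endosomal sorting gene, had 24.7 CPM against 15.0 CPM (0.68). In MKN74 PGLS changed by 0.35 and MVB12A by 0.45.

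Among the remaining long-chain synthetases, ACSL4, which prefers arachidonic acid and shapes the membranes attacked in ferroptosis, was higher in both overexpression libraries by less than 2-fold. It had 96.7 CPM in AGS overexpression against 72.0 CPM in AGS control, and 26.1 CPM in MKN74 overexpression against 16.8 CPM in MKN74 control. The changes were 0.42 in AGS (0.35 to 0.49) and 0.60 in MKN74 (0.47 to 0.73). ACSL1, which feeds fatty acids to oxidation and to triglyceride in liver, muscle and fat, had 28.8 CPM in AGS overexpression against 25.2 CPM in AGS control, and 57.7 CPM in MKN74 overexpression against 50.4 CPM in MKN74 control. Its changes were close in size, 0.19 in AGS and 0.19 in MKN74. ACSL3, which works at lipid droplets, had 108 CPM in AGS overexpression against 120 CPM in AGS control (change of -0.15, and -0.088 after quantile normalization or -0.090 with scaling to the listed rows), and 237 CPM in MKN74 overexpression against 201 CPM in MKN74 control (0.23). ACSL3 thus moved in opposite directions in the lines.

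The other transport proteins showed changes under 2-fold. SLC27A2, the very long-chain synthetase of liver and kidney, was the only member lower in both overexpression libraries. It had 32.4 CPM in AGS overexpression against 35.0 CPM in AGS control (change of -0.11, and -0.050 with scaling to the listed rows), and 12.3 CPM in MKN74 overexpression against 17.0 CPM in MKN74 control (-0.43). SLC27A3 had 8.07 CPM in AGS overexpression against 7.34 CPM in AGS control, a change of 0.12 whose counting interval of -0.079 to 0.32 held 0 and which was -0.095 after quantile normalization and 0.078 with a common median. In MKN74 it had 12.9 CPM in overexpression against 8.78 CPM in control (0.51). SLC27A4, the transport protein of intestine and skin, had 60.5 CPM in AGS overexpression against 50.1 CPM in AGS control (0.27), and 56.3 CPM in MKN74 overexpression against 63.1 CPM in MKN74 control (-0.16).

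In all, 6 of 9 members were higher in overexpression in both lines, 1 was lower in both and 2 moved in opposite directions. Over 10766 genes the shares were 25.6% higher in both, 31.0% lower in both and 43.3% opposite. The count of 6 includes SLC27A3, whose direction in AGS turned with quantile normalization. Of the 27 steps between neighbouring libraries in the order of each member's levels, 24 had a counting interval of the ratio above 1. The other 3 were MKN74 control above AGS overexpression and AGS overexpression above AGS control for SLC27A3, and MKN74 control above AGS overexpression for SLC27A4. The order was taken from the same levels, so every ratio lies above 1 by construction. The intervals narrow with reads, and no share over all genes was computed, so the count of 24 is a description.

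Taking the lines as replicates of overexpression, limma called 0 of the 9 members and 0 of 12340 genes (0.0%), while 566 genes had an unadjusted p under 0.05. ACSL5 had a common change of 3.90 (SE 0.81) with a limma adjusted p of 0.8, higher in both lines. ACSM3 had 1.58 (SE 0.56), SLC27A1 1.12 (SE 0.42) and ACSL4 0.51 (SE 0.17), each higher in both lines with a limma adjusted p of 0.8. This fit left 1 residual degree of freedom, and the gap between the lines in the change of ACSL5 entered its error.

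The genes whose centred log2(CPM + 1) profile over the 4 libraries lay nearest to that of ACSL5 were APOL1, PPM1H, OAS2, IFIT3 and IFITM1, among 12331 genes. The Euclidean distances were 1.16 for APOL1, 1.44 for PPM1H, 1.52 for OAS2, 1.57 for IFIT3 and 1.60 for IFITM1, with a median over all genes of 4.45. APOL1, a serum apolipoprotein gene, had 25.6 CPM in AGS overexpression against 13.2 CPM in AGS control, and 42.1 CPM in MKN74 overexpression against 0.766 CPM in MKN74 control. Like ACSL5, all 5 were lowest in MKN74 control and highest in MKN74 overexpression. They were chosen for nearness to ACSL5 over these same 4 libraries, so this shared order is no separate result. These genes differed from ACSL5 in AGS. Their changes there were 0.91 for APOL1, 0.41 for PPM1H, a phosphatase gene, 0.34 for OAS2, an oligoadenylate synthetase, 0.68 for IFIT3 and 0.61 for IFITM1. In MKN74 their changes ran from 4.61 for APOL1 to 6.50 for OAS2. Among the members ACSM3 was nearest to ACSL5, at 2.52, and 31 genes outside the family were nearer. The likeness is over 4 libraries.

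**Figure D3:**
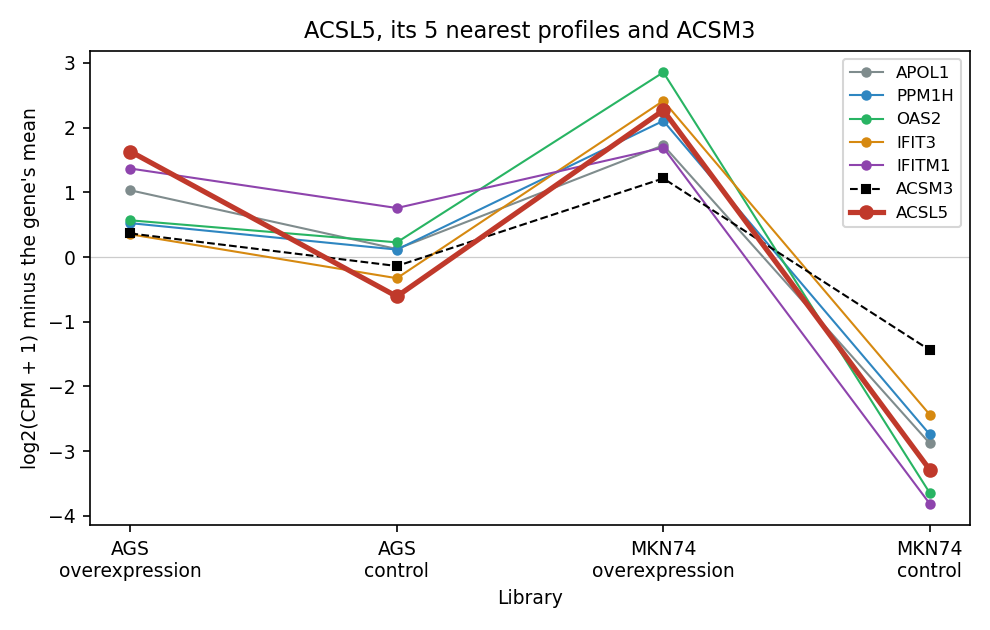
log2(CPM + 1) minus the gene's mean over the 4 libraries, 1 point per library, for ACSL5 (thick red), its 5 nearest genes and ACSM3 (dashed black). Lines join a gene's points for reading. In AGS the step between overexpression and control is 2.24 for ACSL5 and 0.34 to 0.91 for the 5 nearest genes.

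Between the lines, MKN74 expressed more ACSL1 and ACSL3 than AGS and less ACSL4, SLC27A2 and SLC27A1. The limma line difference, MKN74 minus AGS, was 0.98 (SE 0.16, adjusted p = 0.0126) for ACSL1 and 0.93 (SE 0.18, adjusted p = 0.0184) for ACSL3. It was -1.94 (SE 0.17, adjusted p = 0.00258) for ACSL4, -1.17 (SE 0.19, adjusted p = 0.012) for SLC27A2 and -1.51 (SE 0.42, adjusted p = 0.0464) for SLC27A1. Each had the same direction in both arms. The limma adjusted p of SLC27A1 was 0.0528 without a mean trend and 0.0554 with a pseudocount of 2. Over all genes 20.9% were called higher in MKN74 and 22.3% lower, so 2 and 3 of 9 members stand against a large background. SLC27A1 differed by -2.29 in overexpression and by -0.74 in control. Each line had 1 library per arm and the labels name no separate cultures, so the arms stood in as replicates of a line. These p-values thus measure the line difference only against its variation between the arms, with limma's moderation over all genes.

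ACSL4 had 26.1 CPM in MKN74 overexpression and 16.8 CPM in MKN74 control, against 96.7 CPM in AGS overexpression and 72.0 CPM in AGS control. It was thus at least 2-fold lower in MKN74 in both arms, as were 12.9% of 12340 genes. SLC27A2 was so as well, by -1.33 in overexpression and -1.004 in control, the latter close to the mark. ACSL3 had 237 and 201 CPM in MKN74 overexpression and control, against 108 and 120 CPM in AGS overexpression and control. The ACSL1 difference was 0.98 in overexpression and 0.97 in control. SLC27A3 (0.42, limma adjusted p = 0.18) and SLC27A4 (0.11, limma adjusted p = 0.65) did not pass. For ACSL5 the arms disagreed: MKN74 was higher than AGS by 0.64 in the overexpression libraries (0.56 to 0.72), while in the controls the difference was -2.68 (-2.90 to -2.41). ACSM3 did the same, with 0.85 in overexpression (0.63 to 1.07) and -1.30 in control (-1.55 to -1.0). At least 2-fold lower in MKN74 control and higher in MKN74 overexpression were 0.527% of 12340 genes. The limma line differences, which average these arms, were -1.02 (adjusted p = 0.349) for ACSL5 and -0.22 (adjusted p = 0.767) for ACSM3. With voom on the recovered reads, the limma line difference of ACSL5 was -0.077 (adjusted p = 0.944) and that of ACSM3 was 0.13 (adjusted p = 0.904).

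**Figure D4:**
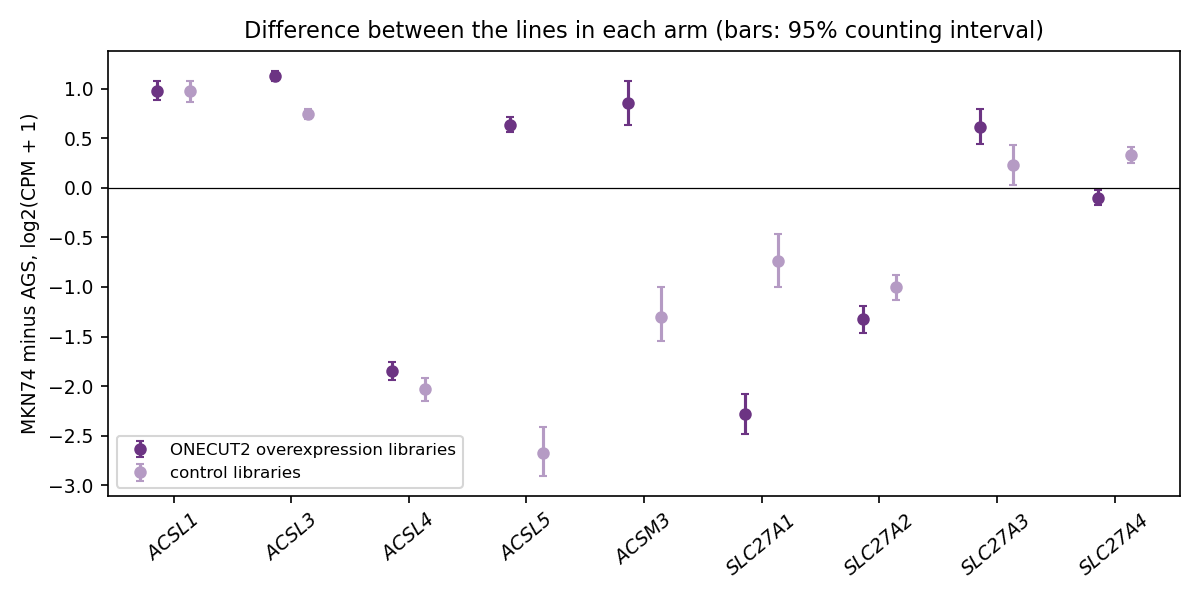
Difference between the lines, MKN74 minus AGS, in log2(CPM + 1), for each member in the overexpression libraries (dark) and in the controls (pale), with 95% counting intervals as bars. ACSL5 and ACSM3 lie above 0 in overexpression (0.64 and 0.85) and below 0 in control (-2.68 and -1.30). SLC27A4 lies below 0 in overexpression (-0.10) and above 0 in control (0.33). ACSL1, ACSL3, ACSL4, SLC27A1, SLC27A2 and SLC27A3 keep 1 side.

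Of 18 further genes of the acyl-CoA synthetase superfamily 8 had rows, and 7 averaged 1 CPM or more in each line with 0 past 2-fold, at medians of 0.097 in AGS and 0.077 in MKN74. Since few genes passed 2-fold over the whole table (4.19% higher and 0.728% lower in AGS, 3.26% and 1.35% in MKN74), a count of 0 among 7 is no result about this list. ACSF2, a mitochondrial synthetase, changed by 0.38 in AGS and 0.33 in MKN74. ACSF3, the malonyl-CoA synthetase of mitochondria, changed by 0.46 in AGS and 0.077 in MKN74, and AACS, which activates acetoacetate, by -0.087 and -0.43. The acetyl-CoA synthetases were at 0.25 in AGS and 0.076 in MKN74 for ACSS1 and at -0.048 and 0.090 for ACSS2, with AASDH at -0.039 and 0.021 and SLC27A5, the bile acid and very long-chain synthetase of liver, at 0.097 and 0.20. ACSBG2 stayed under a mean of 1 CPM in both lines, with 0.671 and 0.698 CPM in AGS and MKN74 overexpression against 0.366 and 1.05 CPM in AGS and MKN74 control.

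Lists for the steps before and after activation held 4 to 21 measured genes per line, and against the same shares over the whole table their counts of 0 to 2 are descriptions and no results about a list. Of the uptake and binding genes 4 were measured in AGS and 5 in MKN74, with 0 past 2-fold, medians of -0.25 and -0.13, and MFSD2A, a lysolipid transporter, at -0.24 and -0.22. Of the thioesterases and acyl-CoA binding proteins, 0 of 15 were higher and 1 lower in AGS (median 0.039), and 0 of 14 passed 2-fold in MKN74 (median 0.24). The lower one was DBI, the acyl-CoA binding protein, with 83.5 CPM in AGS overexpression against 181 CPM in AGS control (change of -1.11), and 0.25 in MKN74. ACBD4 was at 0.86 in AGS and 0.72 in MKN74. In the carnitine shuttle, which carries acyl groups into mitochondria, 0 of 6 passed 2-fold in AGS (median -0.12) and 1 of 7 was higher in MKN74 (median 0.10). That gene was CRAT, carnitine acetyltransferase, with 2.86 CPM in MKN74 overexpression against 0.407 CPM in MKN74 control (1.46). CRAT passed the filter of 1 CPM in MKN74 only through the overexpression library, so its count is a description.

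Of the glycerolipid and lipid droplet genes, 0 of 19 passed 2-fold in AGS (median -0.052), while in MKN74 1 of 19 was higher and 1 lower (median 0.13). DGAT2, which makes triglyceride, had 6.52 CPM in MKN74 overexpression against 2.68 CPM in MKN74 control (1.03), and -0.11 in AGS. MGLL, the monoacylglycerol lipase, had 22.4 CPM in MKN74 overexpression against 66.6 CPM in MKN74 control (-1.53), and moved the other way in AGS (0.86). AGPAT4 was at 0.76 in AGS and 0.38 in MKN74. In phospholipid remodelling and sterol esters, 1 of 11 was higher and 1 lower in AGS (median -0.066), and in MKN74 1 of 12 was lower and 0 were higher (median -0.20). LPCAT4, a lysophospholipid acyltransferase, had 90.1 CPM in AGS overexpression against 31.2 CPM in AGS control, a ratio of 2.89, and SOAT1, which esterifies cholesterol, had 17.6 CPM against 38.9 CPM (change of -1.10). LPCAT2 had 25.6 CPM in MKN74 overexpression against 53.4 CPM in MKN74 control (-1.03).

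**Figure D5:**
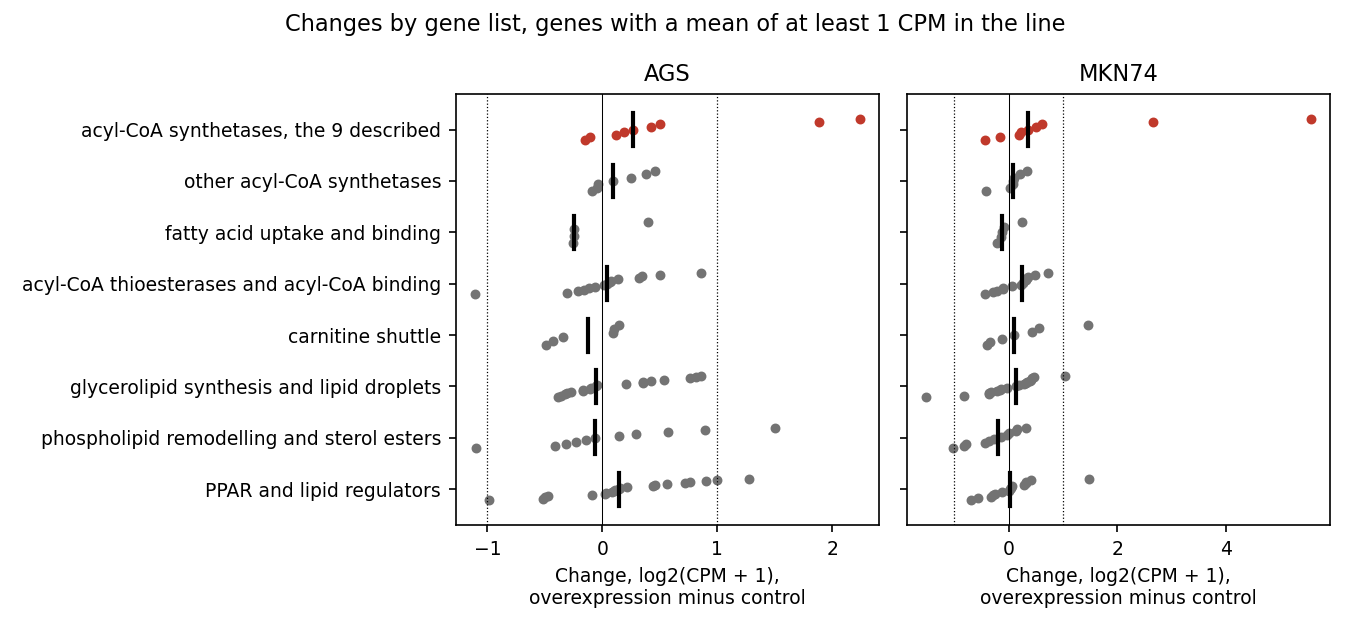
Change of log2(CPM + 1), overexpression minus control, for the 9 members (red) and 7 lists of related genes (grey), AGS on the left and MKN74 on the right. Each point is a gene averaging 1 CPM or more in the line, black bars are medians and dotted lines mark 2-fold. ACSL5 lies outside every related list, at 2.24 in AGS and 5.55 in MKN74.

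Of the lipid regulators, 2 of 21 were at least 2-fold higher in AGS (median 0.14) and 1 of 15 in MKN74 (median 0.026), with 0 lower in either line. PPARA, a receptor that fatty acids activate, had 517 reads in AGS overexpression against 179 in AGS control (change of 1.27), and changed by 0.40 in MKN74. PPARG, the related receptor of fat cells, had 6.09 CPM in MKN74 overexpression against 1.53 CPM in MKN74 control (1.48), and changed by 0.027 in AGS. MLXIPL, a carbohydrate-responsive factor, had 2.66 CPM in AGS overexpression against 0.829 CPM in AGS control. Its change of 1.0 lay at the 2-fold mark, which is set on CPM + 1, so its ratio of CPM was larger. MLXIPL passed the filter in AGS only through the overexpression library, so its place in the count is a description. Over all the related lists 0 genes were at least 2-fold higher in both lines, where 0.344% of 10766 genes were.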

How the data were processed

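RNA libraries of AGS and MKN74 were made with the TruSeq RNA kit, per the labels' protocols. The submitters' processing notes list edgeR 3.12.1, STAR 2.5.1, HOMER 4.9.1, Bowtie2 2.1.0, CASAVA 1.7 and the build hg19 without roles. For the counter, its annotation and its strand setting, the sources used here give nothing. The labels hold 12 samples, and the 8 ChIP samples were not analysed here.

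The authors deposited log2 values, which are log2(CPM + 1) by their steps: every value gives whole reads within 3.1e-08 of a read. The steps imply 41014432 to 45849254 reads per library, 83.1% to 88.1% of them in the listed rows. Of 13109 rows 18 named by a date were left out. Ratios have exact (Clopper-Pearson, conditional binomial) intervals; the interval of a ratio of ratios uses the normal approximation. Both cover counting error only. limma (mean trend, Benjamini-Hochberg adjustment over all genes, threshold 0.05) used line and overexpression as terms and genes averaging 1 CPM or more across the 4 libraries. The cell line pairs the libraries. A quasi-likelihood count test on the recovered reads was planned and not run; voom was run on them in its place.

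Named were all 9 members, ONECUT2, every measured further synthetase, in other lists the genes past 2-fold in either line and the largest mean change, and the 5 profiles nearest to ACSL5. Overlapping and neighbouring genes, CDH1 and CD68 were added after their values were seen. Members, lists and motifs were chosen with earlier results of these data known. Promoters and gene neighbours came from RefSeq (GRCh38.p14), matched by symbol, with the first start listed taken where a gene has several. Alternatives were other pseudocounts (2 and 0.1), scalings, filters and folds, moderation without trend, voom and single lines or arms. The fits ran in limma 3.58.1 under R 4.3.3, and all else in Python 3.11.15 with scipy 1.17.1, pandas 2.3.3, numpy 2.4.6 and matplotlib 3.10.9.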

Additional observations from a re-analysis of the deposited data

Results flagged for a closer look

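Changes in opposite directions in the lines, with 1 library per group and no test of the difference, were seen for ACSL3, at -0.15 in AGS and 0.23 in MKN74, and for SLC27A4, at 0.27 in AGS and -0.16 in MKN74. The difference between the lines, MKN74 minus AGS, had opposite directions in the arms for ACSL5 (0.64 in overexpression and -2.68 in control), ACSM3 (0.85 and -1.30) and SLC27A4 (-0.10 and 0.33), and these differences were not tested either.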

How the results depend on the processing

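Within each line, the 18 member changes kept their sign with a pseudocount of 2 or 0.1, a common median and scaling to the listed rows, and 17 of 18 kept it with quantile normalization, SLC27A3 in AGS being the exception. A pseudocount of 0.1 gave 6.79 for ACSL5 and 3.97 for ACSM3 in MKN74, and one of 2 gave 4.86 and 2.03, since both controls rested on few reads. Members at least 2-fold higher in AGS were 1 when counted at 4-fold, and those in MKN74 were 1 at a mean of at least 5 CPM, because ACSM3 lies under that filter. Over all genes, counts at 1.5-fold were 1313 higher and 669 lower in AGS and 787 and 531 in MKN74, and at 4-fold 64 and 7 in AGS and 130 and 14 in MKN74, against 489 and 85 in AGS and 388 and 161 in MKN74 at 2-fold. A mean of at least 5 CPM left 228 higher in MKN74. The common effect was called for 0 genes by limma without trend, with voom (902 at an unadjusted p under 0.05), with a pseudocount of 2, without a filter and with no replicate block for the line. A single line gave -0.15 to 0.23 for ACSL3, -0.16 to 0.27 for SLC27A4 and 2.24 to 5.55 for ACSL5. The line difference was called for 4945 to 5676 genes under the alternatives, against 5330. A single arm gave -2.68 to 0.64 for ACSL5, -1.30 to 0.85 for ACSM3, -0.10 to 0.33 for SLC27A4 and -2.29 to -0.74 for SLC27A1, and voom gave 0.13 for ACSM3 (limma adjusted p = 0.904); the cause was not tested.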
